A study of Drosophila melanogaster with 2 samples.

Results

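Of the 3846 binding sites of HLH3B in the authors' conservative peak set, 1227 lay inside introns and away from promoters. A site was placed at its summit, the base of highest signal in the peak. It counted as distal intronic when the summit was over 1000 bp from every annotated transcription start, inside a gene body and in no annotated exon. These sites made up 31.9% of the set (Wilson 95% interval 30.4 to 33.4). The rest were 2063 promoter sites (53.6%), 499 distal intergenic sites (13.0%) and 57 distal exonic sites (1.48%).

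HLH3B belongs to the Tal1-type branch of the basic helix-loop-helix (bHLH) transcription factors. Proteins of this family pair with a second bHLH protein and bind the E-box, a short word that reads CANNTG. In vertebrate blood cells the Tal1 protein works in a complex with LMO proteins and GATA factors, so E-boxes and GATA motifs are often found near each other at its sites. Fly introns, above all the introns closest to the start of long genes, hold many enhancers, stretches of DNA that raise transcription of a gene from a distance.

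The data came from chromatin immunoprecipitation with sequencing (ChIP-seq) of whole Drosophila melanogaster embryos aged 8 to 24 hours. The flies were of the HLH3B-GFP strain and carried a fusion of HLH3B with eGFP, which was pulled down with an antibody against GFP. There was 1 group with 2 biological replicates, no second condition, and no record of the sex of the embryos. Which promoter drives the transgene is unknown here. Peak signal is the authors' own value, whose scale is unknown here, depth is unknown, and the control experiment was not analysed here. A pull-down shared by many proteins and binding of HLH3B itself therefore cannot be told apart. In whole embryos, fewer cells with a bound site and weaker binding per cell cannot be told apart either.

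The DNA under the strongest distal intronic sites is shown because its base composition differs from that of the sequence around it, as the values further on show. Each line holds 101 bases of the plus strand (dm6), with 50 bases on each side of the summit, for the 6 sites of highest signal that passed the rule for printing. Capitals mark the GATA motif, on either strand, which is searched as the letters GATA with an A or a T before them and an A or a G after them.
CG11050: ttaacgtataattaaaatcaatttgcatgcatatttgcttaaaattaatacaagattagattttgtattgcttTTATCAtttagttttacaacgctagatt
CG32772: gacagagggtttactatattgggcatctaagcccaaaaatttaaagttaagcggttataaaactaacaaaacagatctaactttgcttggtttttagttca
Tlk: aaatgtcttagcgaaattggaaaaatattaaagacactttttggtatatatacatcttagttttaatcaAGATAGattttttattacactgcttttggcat
CG3726: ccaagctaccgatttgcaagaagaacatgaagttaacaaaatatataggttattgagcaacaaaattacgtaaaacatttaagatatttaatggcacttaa
CG32486: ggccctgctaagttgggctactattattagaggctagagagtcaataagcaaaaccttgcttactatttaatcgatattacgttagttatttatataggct
Trl: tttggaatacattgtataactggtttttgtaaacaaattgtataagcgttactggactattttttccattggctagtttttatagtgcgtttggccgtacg

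These windows lie at chr2L:6612656-6612756 in CG11050, chrX:4910313-4910413 in CG32772, chrX:3742159-3742259 in Tlk, chrX:5918862-5918962 in CG3726, chr3L:3060755-3060855 in CG32486 and chr3L:14759449-14759549 in Trl. Their G+C content ran from 21.8% to 35.6%. Of the 6 windows, 2 held a GATA motif and 0 held an E-box of any kind. The longest run of A and T alone was 12 bases, in CG11050 and in Tlk. These 6 windows were thus AT-rich stretches without the word that a bHLH protein is known to bind.

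The strongest distal intronic site was in CG11050, at a signal of 2555 in the conservative set, which ranked 2 among all 3846 sites. The candidate lists of the single replicates gave it 1355 (replicate 1) and 1184 (replicate 2). This site sat in a short intron of 140 bp, 1019 bp from the start of the gene, so it lay just past the limit that makes a site distal. CG32772 followed at 1374 (replicates 659 and 717). The site in Tlk, which codes for the Tousled-like kinase, had a signal of 1257 (replicates 630 and 625) and lay in a first intron of 41450 bp. CG3726 had a signal of 1169 (504 and 664), and CG12769 had 1134 (625 and 512). The replicates were thus close to each other at these strong sites, in a set made from both replicates with a threshold on reproducibility.

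Several of the next sites lay in genes with a known role in chromatin or signalling. CG32486 carried a site of signal 1100 (replicates 510 and 599). A site in Trl, which codes for GAGA factor, a chromatin protein that binds GA repeats, had a signal of 1043 (476 and 566). The gene of the fly NFAT factor held a site of 1029 (509 and 521). A site of 987 (434 and 549) lay in overlapping genes, CG46321, CG12912 and the nuclear receptor gene Hr3. The phospholipase C gene norpA, known for its part in fly vision, had a site of 936 (493 and 451). CG9837 and the kinase gene Raf both had sites of signal 905, at 463 and 443 in the replicates for CG9837 and 455 and 457 for Raf. Gug, which codes for the corepressor Atrophin, had a site of 856 (480 and 374). The last of the 15 strongest sites were in lncRNA:CR44810 at 824 (405 and 425) and in edl, an antagonist of ETS factors, at 737 (357 and 385).

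Across all members, the distal intronic sites had a median signal of 128 (quartiles 95.3 and 196). The median was 127 (91.3 and 179) at distal intergenic sites and 151 (102 and 260) at promoter sites. Of the distal intronic sites, 14 (1.14%, Wilson interval 0.681 to 1.91) ranked among the 100 strongest of the set, against 3 of the distal intergenic sites and 82 (3.97%, 3.21 to 4.91) of the promoter sites. Among the 1000 strongest sites were 259 (21.1%, 18.9 to 23.5) of the distal intronic sites and 649 (31.5%, 29.5 to 33.5) of the promoter sites. The strong end of the signal range was thus held by a smaller share of distal intronic sites than of promoter sites, and the intervals did not overlap. Sites just inside the limit, at 1001 to 1200 bp from a start, numbered 81 and had a median signal of 130. Sites just outside it, at 801 to 1000 bp and likewise in a gene body and in no exon, numbered 96 and had a median of 129.

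Most distal intronic sites were seen in each replicate taken by itself. The thresholded list of replicate 1 held a peak that overlapped 894 of the 1227 sites (72.9%) by at least 1 bp, and the list of replicate 2 overlapped 933 (76.0%). Both lists overlapped 742 sites (60.5%), and neither overlapped 142 (11.6%). A candidate summit within 100 bp was present in both replicates at 1158 sites (94.4%). There the median log2 ratio of replicate 1 over replicate 2 was 0.08 (quartiles -0.19 and 0.39). The replicate signals had a Spearman rho of 0.744 over these 1158 sites, given as a description because all sites share the same pair of libraries. The set was also made from both replicates with a threshold on the irreproducible discovery rate. Part of this agreement between replicates therefore comes with the choice of sites.

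**Figure D1:**
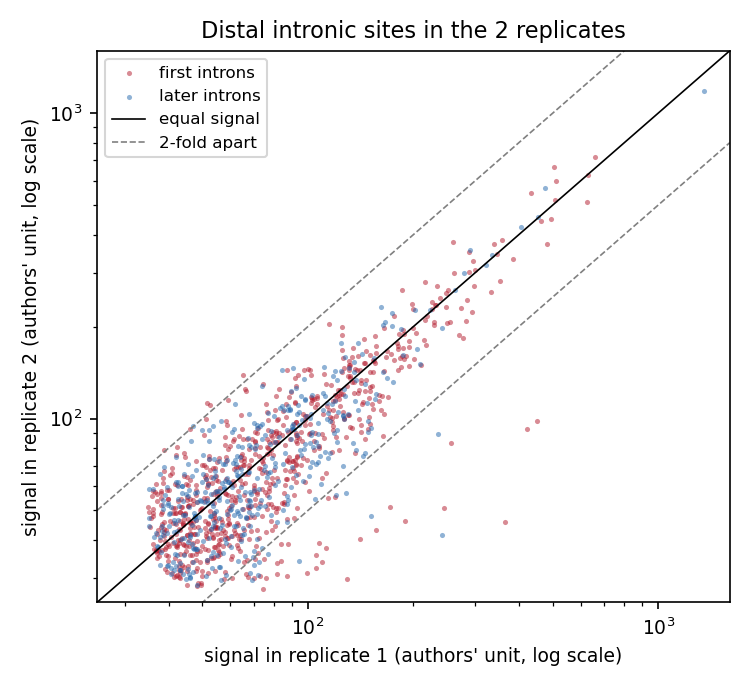
Signal of each distal intronic site in replicate 1 (x axis) and replicate 2 (y axis), both in the authors' unit on log scales, for the 1158 sites with a candidate summit in both replicates (red, first introns; blue, later introns). Most points lie between the dashed lines that mark a 2-fold difference, and the points below the lower line, higher in replicate 1, outnumber those above the upper line.

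The sites that differed by over 2-fold between replicates were mostly higher in replicate 1. They numbered 51 (4.40% of the 1158), of which 45 were higher in replicate 1 and 6 in replicate 2. SCaMC, a mitochondrial carrier gene, differed most, at 365 for replicate 1 and 45.9 for replicate 2. A site in cno, which codes for the junction protein Canoe, had 452 and 98.3, and a site in sbb, which codes for a transcriptional cofactor, had 423 and 92.3. Mef2, the master regulator gene of muscle, had a site with 129 and 29.9, and Tre1, a receptor gene for germ cell migration, had one with 244 and 50.9. At the 45 sites higher in replicate 1 the G+C content averaged 35.1% ± 9.27 (SD over sites), against 30.9% ± 7.62 at the 1107 sites within 2-fold. These 45 sites were picked by their values, so the difference is a description.

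A further 28 sites had a candidate summit in replicate 1 alone and 18 in replicate 2 alone. The strongest of the 28 lay in ush, which codes for the GATA cofactor U-shaped, with a signal of 302 in the set and 260 in replicate 1. CAGATG, an E-box that mammalian Tal1 complexes bind, was present at 6 of the 28 (21.4%, Wilson interval 10.2 to 39.5), against 31 of the 1107 sites within 2-fold (2.80%, 1.98 to 3.95). It was present at 0 of the 45 sites over 2-fold higher in replicate 1, at 2 of the 6 higher in replicate 2, at 1 of the 18 with a summit in replicate 2 alone (5.56%) and at 0 of the 23 with a summit in neither, so the classes did not follow 1 direction. The 6 sites were in MSAmiP, nmo, Ack, Lmpt, shn and Mkp3, all with signals from 45.3 to 108. Promoter sites had 5 of 58 (8.62%, 3.74 to 18.6) in the same class, and distal intergenic sites had 0 of 6 (upper Wilson limit 39.0). These sites were also picked by their values, and no test was made.

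Distal introns as a whole held more sites per base than the sequence between genes. There were 25.4 sites per Mb of distal intronic sequence (exact Poisson 95% interval 24.0 to 26.8, over 48.4 Mb) and 14.9 per Mb of distal intergenic sequence (13.6 to 16.3, over 33.4 Mb). The ratio was 1.70 (1.53 to 1.89; exact conditional binomial test of the rates, two-sided, p = 8.04e-25). Promoter sequence held 65.3 sites per Mb, and distal exonic sequence held 2.82. Sites of 1 pooled set are not replicates, so this p-value covers counting error over sites and not the spread between embryos. The ratio was 1.91 in the list of replicate 1 and 1.66 in that of replicate 2.

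Within introns, the sites gathered in the introns next to the transcription start. First introns carried 786 sites, or 39.6 per Mb (36.9 to 42.4), and later introns carried 441 sites, or 15.5 per Mb (14.05 to 17.0). A base counted as first intron when it lay in the first intron of any transcript. The ratio was 2.56 (2.28 to 2.88; the same exact test, p = 4.71e-59). It was 2.68 in the list of replicate 1 and 2.40 in that of replicate 2. Pooled over all distances, the density of later introns was close to the 14.9 per Mb (13.6 to 16.3) of distal intergenic sequence, with intervals that overlapped. The 2 were not alike at every distance from the start. Beyond 20 kb later introns had 5.77 per Mb (4.16 to 7.80) and intergenic sequence 2.32 (1.38 to 3.67).

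Distance from the start changed the density as well, and the difference between first and later introns was present in every distance range. At 1 to 2 kb from the nearest start, first introns had 60.7 sites per Mb, later introns 25.1 and distal intergenic sequence 28.7. At 5 to 10 kb the values were 33.3, 18.6 and 14.9 in the same order, and beyond 20 kb they were 18.4, 5.77 and 2.32. The ratio of first to later introns was 2.42 (1.84 to 3.20) at 1 to 2 kb, 2.21 at 2 to 5 kb, 1.79 at 5 to 10 kb, 1.53 (1.11 to 2.11) at 10 to 20 kb and 3.20 (1.87 to 5.37) beyond 20 kb. Later introns were below intergenic sequence at 1 to 2 kb and at 2 to 5 kb (18.3 against 21.2) and above it farther out, and their intervals overlapped in every range but the last. The intergenic range beyond 20 kb rests on 18 sites.

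**Figure D2:**
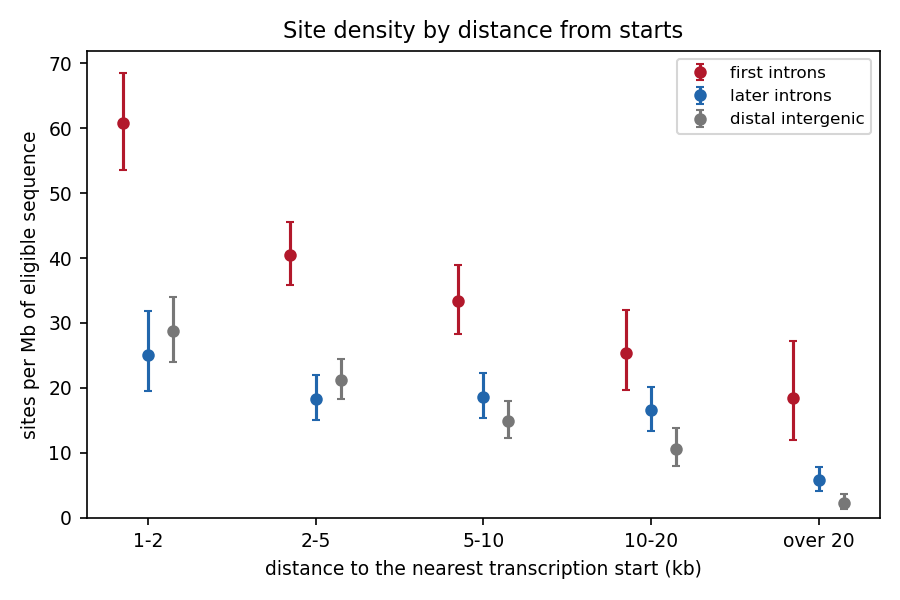
Sites per Mb of eligible sequence (y axis) in first introns (red), later introns (blue) and distal intergenic sequence (grey) by distance to the nearest transcription start (x axis, kb). Points are densities and bars are exact Poisson 95% intervals; first introns lie above later introns in each range, from 60.7 against 25.1 per Mb at 1 to 2 kb to 18.4 against 5.77 per Mb beyond 20 kb.

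The X chromosome carried more distal intronic sites per base than the autosomes. X held 336 distal intronic sites, or 35.9 per Mb (32.2 to 39.9), against 891 sites, or 23.1 per Mb (21.6 to 24.7), on the large autosome arms 2L, 2R, 3L and 3R. The ratio was 1.55 (1.36 to 1.76; exact conditional binomial test, two-sided, p = 3.73e-11), in a comparison added after the data were seen. For distal intergenic sites the ratio was 0.745 (0.554 to 0.986; exact test, p = 0.0359), with 11.6 sites per Mb on X and 15.6 on the autosome arms. For promoter sites it was 1.11 (0.994 to 1.25; exact test, p = 0.0587), with 71.9 per Mb on X and 64.5 on the autosome arms. The 3 p-values are unadjusted, and the difference between the 3 ratios was not itself tested. They also take each site as independent, though sites gather within genes. Of the genes with most sites, kirre (15 sites), lncRNA:CR44357 (11) and Ten-a (9) are on X and sbb (10) is on 2R. The X ratio of distal intronic sites was 1.29 in the list of replicate 1 and 1.61 in that of replicate 2. Chromosome 4 held 0 distal intronic sites in 0.509 Mb, which allows up to 7.25 per Mb (exact Poisson upper limit).

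**Figure D3:**
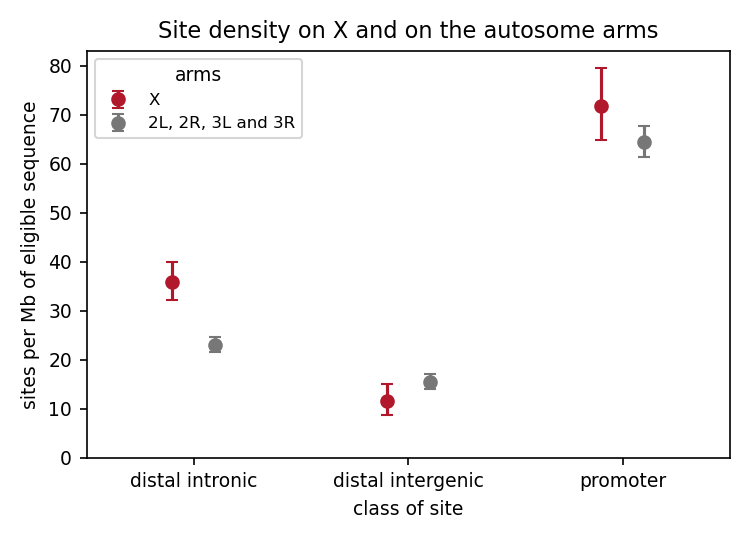
Sites per Mb of eligible sequence (y axis) on X (red) and on the autosome arms 2L, 2R, 3L and 3R (grey) for distal intronic, distal intergenic and promoter sites (x axis). Bars are exact Poisson 95% intervals; the distal intronic intervals of X (32.2 to 39.9) and the autosome arms (21.6 to 24.7) do not overlap.

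Most sites lay in long introns, although site density was highest near starts, at 47.0 per Mb of intron at 1 to 2 kb and 7.76 beyond 20 kb. The median distance from summit to nearest start was 3978 bp (quartiles 1911 and 7973, highest 54159), and that to the nearest exon was 2027 bp. The intron that held a site had a median length of 13194 bp, and 743 sites (60.6%) lay in introns over 10000 bp. The share of eligible sequence in introns of that length was not counted, so these values do not show a preference for long introns. Along the intron in the direction of transcription, cut into 3 equal stretches, 472 sites lay in the stretch nearest the start, 443 in the middle and 312 in the last. The nearest start belonged to the host gene at 837 sites (68.2%). Another site of the set, of any class, lay within 5 kb of 649 sites (52.9%). The share expected from site density alone was not worked out. Only 2 distal intronic sites lay in annotated transposable elements.

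The sites fell in 664 different host genes when each was given to its smallest protein-coding host, and 1204 sites had a protein-coding host. Counting every gene that spans a site, 684 of the 3130 genes with at least 1000 bp of distal intronic sequence held a site (21.9%). Of these 684 genes, 412 held 1 site and 139 held 2. The share of hosts climbed with the length of such sequence, from 8.50% of genes with 1 to 5 kb to 53.4% of those with 50 to 100 kb. Density ran the other way: 39.0 sites per Mb at 1 to 5 kb, 23.8 at 50 to 100 kb and 8.38 in the 55 genes with over 100 kb. In that last group 41.8% of genes were hosts.

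The gene with most sites was kirre, a cell adhesion gene needed for muscle fusion, with 15 sites over 317 kb of eligible sequence (47.4 per Mb). Their signals ran from 71.9 to 374. The gene sbb held 10 sites in 53.1 kb (188 per Mb), all in first introns, with signals up to 720. CHES-1-like, a forkhead gene, held 8 sites in 11.3 kb, which at 710 per Mb (307 to 1399) was the densest of the 10 genes with most sites. Its signals ran from 99.0 to 450. Ten-a, a teneurin gene for synaptic partner matching, held 9 sites, and the nuclear receptor gene Hr4, the BMP effector gene shn and ush held 8 each. CG1677 and lncRNA:CR44999 held 8 each, and lncRNA:CR44357 held 11. CG1677 lies inside lncRNA:CR44357, so their sites are partly the same, the strongest at 299.96 included. Ties at 8 sites were ordered by summed signal, and 1 more gene with 8 sites fell outside the 10. HLH3B itself (chrX:2680199-2681723, dm6) had no distal intronic sequence and no site.

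Gene lists were compared by the density of sites in the eligible intronic sequence of their members, beside 25.4 per Mb over all genes. They are described without a test, since the lists were drawn up with earlier results of these data known. The Poisson intervals of the lists take each site as independent. Where sites gather in few genes, these intervals are too narrow, so whether they take in 25.4 per Mb is no test. Genes of the Wnt, Hedgehog, BMP, EGFR and FGF pathways had 87.9 sites per Mb (66.4 to 114), with 19 of 36 members as hosts (52.8%, against 21.9% of all genes). Their members have a median of 10.8 kb of eligible sequence, against 5.97 kb over all genes, and host shares climb with that length. Of their eligible sequence 53.0% is first-intron sequence, against 41.0% over all genes, and the part of these differences in the density was not tested. By role, the ligands and ligand modulators included sog with 4 sites, cv-2 with 3, Wnt4 with 2, and dpp, wg and Wnt10 with 1 each. Receptors included fz, fz2 and tkv with 5 sites each, arr with 2, and Egfr, ptc and put with 1 each. Among effectors and regulators inside the cell, shn had 8 sites and the ETS genes aop and pnt had 4 and 3.

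The strongest sites of these pathways lay in aos, Star and shn. The gene aos, which codes for the secreted EGFR inhibitor Argos, had a site of signal 635 (replicates 289 and 351) in its first intron, 3085 bp from a start. Star (S), which helps EGFR ligands mature, had 6 sites, the strongest at 468 (226 and 240). The strongest site in shn, a zinc-finger partner of the BMP mediator Mad, was at 459 (250 and 206).

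Blood cell genes had 89.1 sites per Mb (55.8 to 135), from 5 hosts among 16 members (31.3%, against 21.9% of all genes). Of their eligible sequence 52.1% is first-intron sequence, against 41.0% over all genes. The sites gathered in few genes: ush held 8, the kinase gene msn held 7 and the PDGF/VEGF-type ligand gene Pvf3 held 5. The zinc-finger gene zfh1 had 1 site at 399 (replicates 173 and 221), and kn, the fly EBF gene, had 1 at 121. Ush antagonises GATA factors in fly blood cells. All 8 of its sites were in first introns, with the strongest at 349 (194 and 149), and 4 of the 8 held a GATA motif, against 25.2% of all members. The weakest site in ush had a signal of 2.40. Among the other genes with most sites, Ten-a had GATA at 3 of 9, lncRNA:CR44357 at 3 of 11 and sbb at 2 of 10. Hr4, CG1677 and lncRNA:CR44999 had 2 of 8 each, kirre 2 of 15, and CHES-1-like and shn 1 of 8 each. No test was made of these counts. The Tal1-type complex and GATA factor list had 68.9 sites per Mb (33.0 to 127) from 3 of 8 members. This list has 63.4% of its eligible sequence in first introns. Besides ush, it had 1 site in Bx, the fly LMO gene, at 247 (123 and 124) and 1 in the GATA gene grn at 103 (62.4 and 44.4).

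Other lists of regulators were also dense. First introns make up 28.7% of eligible sequence in the bHLH list, 48.1% in the ecdysone response list and 51.5% in the chromatin factor list. The median eligible sequence of their members is 7.12, 39.5 and 8.98 kb in the same order, against 5.97 kb over all genes. Hosts were 45%, 53.3% and 58.8% of members, against 21.9% of all genes and 42.3% of those with 20 to 50 kb. The bHLH list had 59.7 sites per Mb (36.0 to 93.3) from 9 of 20 members. Among them sima, the fly HIF-alpha gene, had 5 sites up to 476 (247 and 231), and Mnt, which codes for a Max partner that opposes Myc, had 5 up to 236. The site in the midline gene sim was at 229, with 172 in replicate 1 and 51.4 in replicate 2, so it was among those that differed by over 2-fold. The ecdysone response list had 55.1 per Mb (37.7 to 77.7) from 8 of 15 members, with the site of 987 in Hr3 given above as its strongest, Hr4 up to 651 (323 and 319) and Eip63E, a cyclin-dependent kinase gene, up to 568 (261 and 299). Polycomb, trithorax and BTB chromatin factors had 54.2 per Mb (31.0 to 88.1) from 10 of 17 members, led by the site in Trl given above and by 1 in Psc, a Polycomb group gene, at 420 (241 and 198).

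At the other end, ion channel and transmitter receptor genes had 8.48 sites per Mb (3.88 to 16.1), from 8 of 33 members (24.2%, against 21.9% of all genes). Their members have a median of 32.6 kb of eligible sequence, against 5.97 kb over all genes. First introns make up 26.4% of that sequence in this list, against 41.0% over all genes. The part of these differences in the density was not tested. The potassium channel gene Irk1 had the strongest site of this list at 422 (216 and 210), in an intron it shares with CG46310. RNA-binding protein genes had 11.0 per Mb (6.50 to 17.3), and 11 of 22 were hosts (50%). Their members have a median of 65.8 kb of eligible sequence. Of all genes with 50 to 100 kb, 53.4% were hosts, so the host share of this list was near that of genes of like length. In this list pum had 4 sites and shep had 3, with shep up to 283 (163 and 119).

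The remaining lists had intervals that took in the 25.4 per Mb of all genes, apart from the glial list. Their host counts stand beside 21.9% of all genes, a share that climbs with eligible length. Glial genes had 60.9 per Mb (29.2 to 112), from 4 of 14 members. Of these 4, Nrg, pnt and ths stand in other lists too, and loco had 1 site, at 221. Axon guidance and cell adhesion genes had 26.1 per Mb (19.0 to 35.1) from 15 of 35 members (42.9%), with NetA holding 6 sites and its receptor gene fra 5. The members of this list have a median of 32.9 kb of eligible sequence, and 42.3% of all genes with 20 to 50 kb were hosts. Muscle genes had 33.3 per Mb (22.0 to 48.5) from 9 of 22, where kirre held 15 of the 27 sites. Notch pathway genes had 25.9 per Mb (9.49 to 56.3) from 4 of 9, but a high median signal of 295: N had a site of 394 (161 and 231), mam, which codes for its coactivator, one of 371 (166 and 207), and the ubiquitin ligase gene neur one of 356 (180 and 176). Hox genes had 26.9 per Mb (10.8 to 55.4) from 3 of 8, tracheal genes 44.9 (22.4 to 80.4) from 6 of 13, heart and visceral mesoderm genes 22.5 (6.14 to 57.7) from 3 of 17, and neuronal and patterning transcription factor genes 19.1 (11.3 to 30.1) from 10 of 42.

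**Figure D4:**
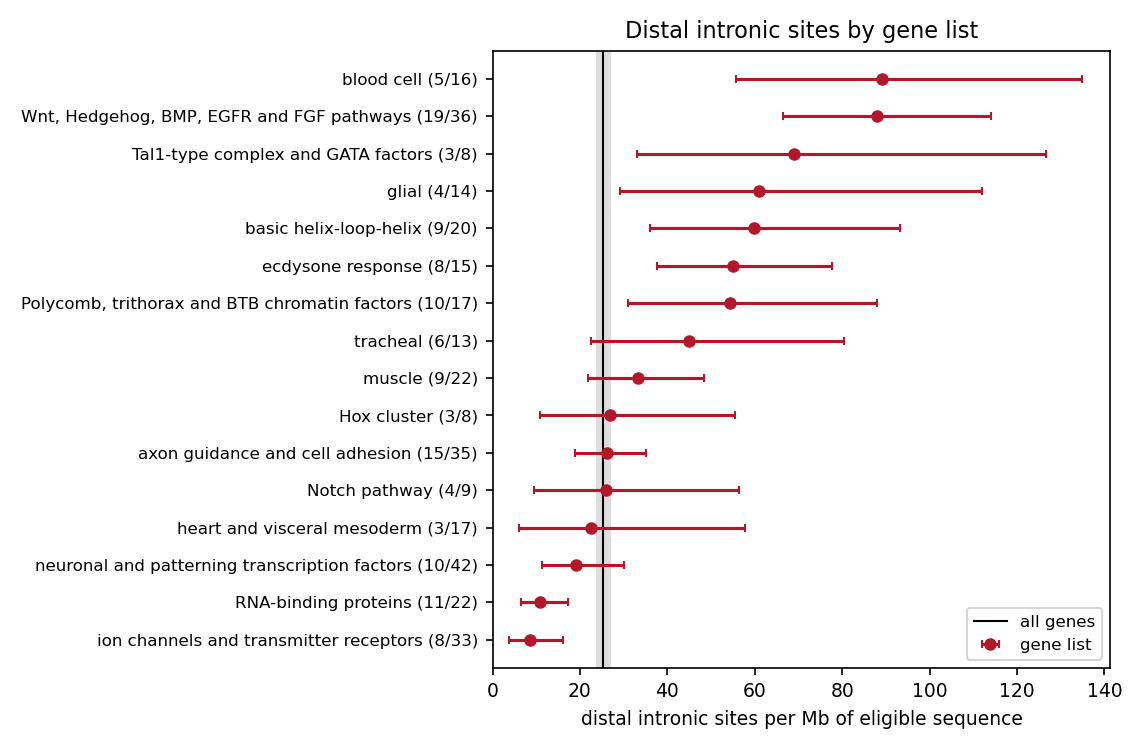
Distal intronic sites per Mb of eligible sequence (x axis) for 16 gene lists (rows), with exact Poisson 95% intervals as bars, and for all genes as a black line at 25.4 per Mb with its interval shaded. Numbers in brackets are hosts of members with at least 1000 bp of eligible sequence; the blood cell and signalling pathway lists lie highest, at 89.1 and 87.9 per Mb.

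The summits of distal intronic sites were AT-rich cores inside GC-rich shoulders. In 101 bp windows the mean G+C content was 31.6% ± 8.19 (SD over 1227 sites) at summits, 44.0% in windows 300 bp to the right, 44.2% in windows 300 bp to the left and 40.1% ± 9.16 over all 461620 tiles of distal intronic sequence. In narrower windows of 51 bp it was 30.9% at the summit, about 41% at 100 bp on each side, 44.9% at 200 bp to the right and back to 40.4% at 1000 bp to the left. The shoulders were thus richer in G and C than introns in general, and the core was poorer. Distal intergenic summits averaged 32.2% and promoter summits 33.1%. First and later introns were alike, at 31.3% ± 7.98 and 32.1% ± 8.53.

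**Figure D5:**
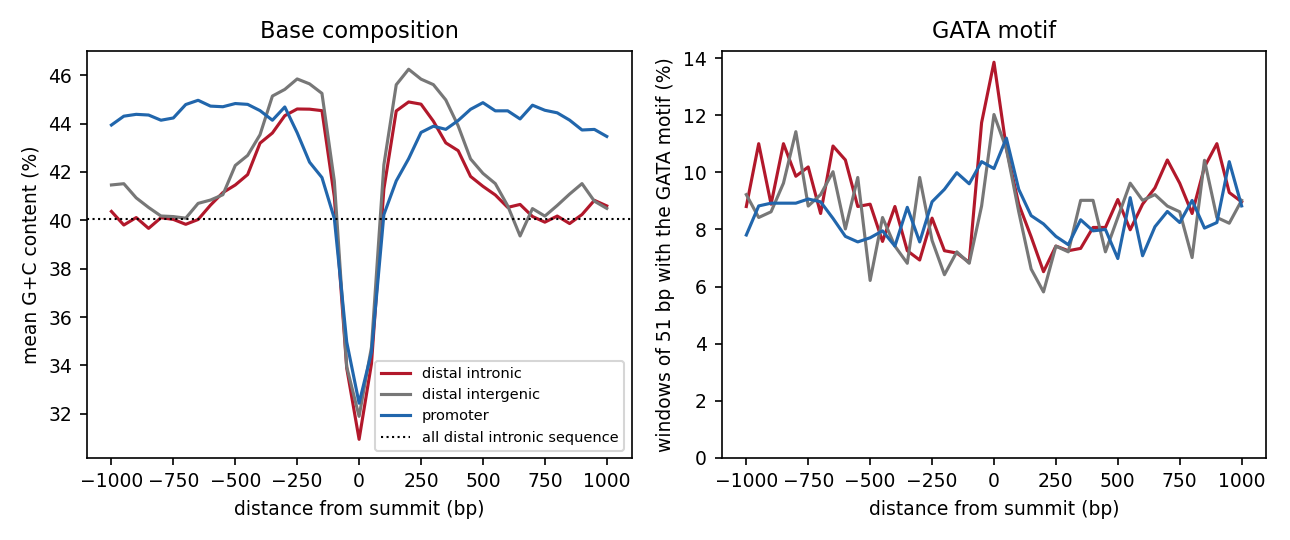
Left, mean G+C content (y axis, %) in 51 bp windows by distance from the summit (x axis, bp) for distal intronic (red), distal intergenic (grey) and promoter sites (blue), with the mean of all distal intronic sequence dotted. Right, share of the same windows that hold the GATA motif (y axis, %); for distal intronic sites the G+C content is lowest, at 30.9%, and the GATA share highest, at 13.9%, at the summit.

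The GATA motif was more frequent at the summits than beside them. It was present within 50 bp of 309 of the 1227 summits (25.2%, Wilson interval 22.8 to 27.7) and in 180 windows 300 bp to the right (14.7%), a log2 ratio of 0.78. The exact two-sided sign test over sites gave an adjusted p of 1.27e-09 over the 14 motifs. Of the 14, 7 passed (50%), and GATA was the only one of them that was higher. The other 6 were lower at summits and hold more G and C than GATA does. They were the E-boxes CACATG (2.77% against 6.44%), CAGCTG (1.63% against 4.32%), CACGTG (0.244% against 1.39%) and CAACTG (5.05% against 7.50%), GAGAG, a word that the Trl protein binds (8.31% against 17.0%), and CAGGTA, a word of the pioneer factor Zelda (1.39% against 3.02%). CAGATG, at 3.26% and 4.24%, did not pass the exact test (log2 ratio -0.37, adjusted p = 0.330).

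Many single hexamers differed by composition too. With every hexamer merged with its reverse complement, 379 were higher at summits (18.2%) and 694 lower (33.4%) at an adjusted p under 0.05 in the exact sign test. Those made only of A and T were higher in 36 of 36 cases, and those made only of G and C were lower in 30 of 36. AAATAT, for example, was present at 36.1% of summits and in 12.2% of the windows beside them.

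The same words were also set against intronic sequence of like base composition. For this, all tiles of distal intronic sequence were weighted to the same spread of G+C content as the windows, in bins of 3 percentage points, as a description with no test. GATA was then expected at 22.8% of summits and found at 25.2%, a ratio of 1.11, and the windows beside had 0.98 of their own expectation. Promoter and distal intergenic summits had ratios of 0.98 and 0.97. CAGATG had a ratio of 1.10 at distal intronic summits and 0.951 beside them, CACCTG had 1.48 and 1.01, CAGCTG 0.902 and 0.987, and CACATG 0.874 and 1.22. Of the other E-boxes, CATATG had 1.31 and 1.40, CAAGTG 1.26 and 1.05, and CAACTG 1.19 and 1.08. CAATTG had 1.09 and 0.951, CAAATG 1.03 and 1.08, and CACGTG, held by only 3 summits, 0.426 and 1.02. GAGAG had 1.09 at distal intronic summits and 1.31 beside them, and CAGGTA had 0.895 and 1.52. CAACTG and GAGAG, which were lower at summits than beside them, were thus not below their expected shares at like composition. For GAGAG and CAGGTA the windows beside stood above their own expectation. TATCGATA, the word of the promoter factor DREF, had 5.85 at promoter summits and 0.53 at distal intronic summits, where only 2 sites held it.

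The words that stood furthest above this expectation were not E-boxes. By the gap between observed and expected counts divided by the square root of the expected count, the leading hexamer was ACAGTG, found at 85 summits where 35.2 were expected, a ratio of 2.42. CAGTGG (67 found, 27.8 expected), ACACTG (77 and 35.2) and CACTGA (80 and 37.6) followed. Set directly against the windows beside summits, without regard to composition, these 4 words differed less. CAGTGG was at 5.46% in both (log2 ratio 0, exact sign test, adjusted p = 1), and ACAGTG had 6.93% against 4.97% (adjusted p = 0.0871, exact sign test). Of the 10 leading hexamers 3 passed, all of them higher at summits. ACACTG stood at 6.28% against 3.67% (adjusted p = 0.00984, exact sign test), CACTGA at 6.52% against 4.07% (adjusted p = 0.0183) and AGTATG at 7.09% against 2.04% (adjusted p = 5.11e-09). Of the 10 leading hexamers 5 hold CACTG or its reverse complement CAGTG. That word was present at 248 of the 1227 summits (20.2%, 18.1 to 22.6), which is 2.02 times the expected share. It was not centred on the summit: 14 sites held it in the 10 bp to the left of the summit and 23 in the 10 bp to the right, against 34 and 42 in the outermost 10 bp of the window on the left and right. In the windows beside the summits the word was at 15.9%, 0.958 times their expected share. The ratio was 1.87 at promoter summits and 1.90 at distal intergenic summits, so the word was shared by all 3 classes. Of the 6 windows printed above, the 1 in Tlk holds the word. Sites with the word had a median signal of 116, against 130 at the 979 sites without it. This word was chosen after the counts were seen, and weighting by the G+C content of a whole window does not even out where in the window the A and T lie.

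Against promoter summits, distal intronic summits differed in few words. Of the 14 motifs 3 passed Fisher's exact test with adjustment over the 14 (21.4%): GATA at 25.2% against 21.2% (log2 ratio 0.25, adjusted p = 0.0403), CAGCTG at 1.63% against 3.64% (-1.13, 0.00537) and TATCGATA at 0.163% against 1.65% (-3.04, 0.000218). The GATA difference did not pass in the list of replicate 2, among sites of signal at or above the median, at a distal limit of 2000 bp, with protein-coding genes alone or in windows of 100 bp each side. Of all hexamers, 2 were higher (0.0962%), ATAGAT at 10.4% against 6.50% and ATGAGA at 4.56% against 2.18%, and 9 were lower (0.433%), led by CGATAG at 1.30% against 4.94%. The count of hexamers ran from 0 to 112 over the alternatives tried.

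Against distal intergenic summits, 0 of the 14 motifs (0%) and 0 hexamers in either direction (0%) passed Fisher's exact test after adjustment. At an unadjusted p under 0.05 the counts were 91 hexamers and 1 motif, CAATTG at 4.65% against 2.40% (Fisher's exact test, p = 0.0303). GATA was at 25.2% of distal intronic and 21.6% of distal intergenic summits, a log2 ratio of 0.22 with an adjusted p of 0.590. A p that misses the threshold does not show that the classes are alike, and the smaller class has 499 sites.

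A small set of weak sites stood apart. Signals under 50 were found at 30 members (2.44%), 20 of them under 20, with the lowest of 2.01 in CG14535. Their G+C content was 44.0% ± 8.90 and 10% held GATA, against 31.3% ± 7.93 and 25.6% at the 1197 members of signal 50 or more. This limit was chosen after the values were seen. Such weak sites were not particular to introns: 3.01% of distal intergenic and 3.34% of promoter sites had signals under 50. Sites with a candidate summit in neither replicate were also weak in all 3 classes. Their G+C content averaged 43.2% at distal intronic, 50.2% at distal intergenic and 44.3% at promoter sites. With these sites left out, the ratio of distal intronic to intergenic density was 1.71, that of first to later introns was 2.58, and 7 motifs passed against the windows beside. With all members ordered by signal and cut into 4 equal groups, G+C content was 34.3%, 31.6%, 29.98% and 30.4% from the weakest group to the strongest.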

How the data were processed

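The authors deposited peak lists on assembly dm6, per the labels and the text notes with the files: a conservative and another series-level set, and a thresholded and a candidate list for each replicate. The deposited signal value of each peak is the authors' own, its scale unknown here. The deposited −log10 of the irreproducible discovery rate (IDR) told candidates that passed 0.01 from those that missed it. Aligner and peak caller: not given in the sources used here. Depth is unknown, so intervals cover counting error over sites only.

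Sites were classed with Ensembl release 115 (BDGP6.54, 18164 genes, no transposable elements). A replicate's signal at a site was its strongest candidate summit within 100 bp. Rates were compared by an exact conditional binomial test, motifs by an exact sign test or Fisher's exact test with Benjamini-Hochberg adjustment over 14 motifs or all hexamers, on both strands. A log2 ratio has 0.5 added to each count. Of 409 listed symbols, 403 matched by symbol and 2 by synonym. The text names the hosts of the 15 strongest sites, the 10 genes with most sites, up to 3 strongest members per list and HLH3B; genes named in replicate comparisons and by site counts within lists were picked after their values were seen. Members and lists were chosen with earlier results of these data known. Sequences printed are the 6 strongest sites off 1 chromosome arm. Alternatives covered peak set, single replicates, signal, distance, annotation and window. The tests were tried on simulated windows and counts. Software was scipy 1.17.1, matplotlib 3.10.9, Python 3.11.15, pandas 2.3.3 and numpy 2.4.6.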

Additional observations from a re-analysis of the deposited data

Results flagged for a closer look

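Candidate peaks that passed the IDR threshold but are absent from the conservative set are outside the main measurement. There were 22 distal intronic peaks among 69 such candidates, 16 on 3R and 5 on 2L, with a median signal of 203. The highest signal was 2484, in ush at 480925 to 481264 on 2L, which is above every distal intronic member but the one in CG11050. Further ones lay in trx at 887, in tara at 866 and in Kdm2 at 435. The cause of their absence was not tested.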

How the results depend on the processing

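The alternatives were the other series-level set, each replicate's own list, sites at or above the median signal, distal limits of 500 and 2000 bp, protein-coding annotation, no transposable elements, other windows, and, chosen after seeing the data, sites of signal under 50 left out. Of 167 alternative values, 134 kept their direction and their side of the threshold or size, 27 moved, 5 fell short of the threshold, 1 newly passed it and 0 reversed. The density ratios all kept their call: 1.55 to 1.91 for distal intronic to intergenic, 2.33 to 2.88 for first to later introns and 1.29 to 1.64 for X to autosome arms. GATA was higher than beside summits in 13 of 13 alternatives (log2 ratio 0.50 to 0.93). The 5 that fell short were GATA against promoters, at adjusted p of 0.0912 to 0.386. CAGATG passed as lower than beside summits with the other set (log2 ratio -0.55, exact sign test, adjusted p = 0.0476).

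The distal intronic share was 28.3% at or above the median signal, 39.4% at 500 bp and 23.3% at 2000 bp. At an overlap of 50% of each peak, 61.2% of sites were in the list of replicate 1 and 64.8% in that of replicate 2. Motif calls against windows beside were 4 at or above the median signal, 4 in windows of 100 bp each side and 3 with windows 1000 bp away, and hexamer calls were 705 in windows of 25 bp each side. Motif calls against promoters were 1 at or above the median signal and 1 to 3 over the single replicate lists. Hexamer calls against promoters were 112 with the other set, 5 to 32 over the replicate lists, 0 at or above the median signal, 40 at 500 bp, 0 at 2000 bp, 22 with protein-coding annotation, and 1 and 84 in windows of 25 and 100 bp each side. Against intergenic summits, 1 motif passed at or above the median signal and 1 hexamer with the other set. G+C content was 33.6% with the other set, 31.5% to 33.7% over the replicate lists, 30.2% at or above the median signal, and 30.9% and 34.8% in windows of 25 and 100 bp each side. The causes were not tested. No paired analysis was possible because there is 1 group. Unknown depth limits what can be said of weak sites.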
